A study of Mus musculus with 2 samples.

Results

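The 6 Dlx genes, which encode homeodomain transcription factors and stand in 3 convergent pairs in the mouse genome, were described in DNase-seq of whole embryonic limb. All 6 members were found among the 21938 protein-coding genes of the annotation. A peak was assigned to a member when it lay within 1 kb of one of its protein-coding starts, inside the gene, between the 2 genes of a pair, or farther out with that gene's start as the nearest within 500 kb. By this rule 75 of 174430 peaks of replicate 1 and 179 of 167369 peaks of replicate 2 belonged to the 6 genes. Merging overlapping peaks of both libraries gave 58 shared regions at the 6 genes, of 118491 in all. The series holds 1 group with 2 biological replicates, healthy limb of strain B6NCrl embryos aged 11.5 days, with both sexes pooled and no allele or agent named. How many embryos entered a pool, and how much of it was forelimb or hindlimb, is not given in the sources used here. With 1 group there is no contrast between conditions, so each library is given on its own.

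Dlx proteins bind short AT-rich sites and act downstream of signals that pattern the appendages, the face and the forebrain. In the limb bud they are best known from the apical ectodermal ridge, the thickened epithelium at the tip that keeps outgrowth going. Loss of Dlx5 together with Dlx6 gives split foot defects in the mouse. Each pair shares regulatory elements, many of which lie between its 2 genes, and long antisense transcripts run through several pairs. DNase-seq marks open chromatin: DNase I cuts where nucleosomes are displaced, and clusters of cuts are called as peaks of 150 bp inside wider regions called hotspots. In whole limb, few cells with open chromatin at a site and a small opening in many cells cannot be told apart.

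Dlx1 (ENSMUSG00000041911.3) occupies chr2:71528113-71533981 on the plus strand and Dlx2 (ENSMUSG00000023391.8) chr2:71543408-71546754 on the minus strand. Dlx3 (ENSMUSG00000001510.8) lies at chr11:95120119-95125296 on the plus strand, facing Dlx4 (ENSMUSG00000020871.8) at chr11:95140447-95146263 on the minus strand. Dlx6 (ENSMUSG00000029754.13) lies at chr6:6863334-6868568 on the plus strand, facing Dlx5 (ENSMUSG00000029755.10) at chr6:6877805-6882085 on the minus strand. Positions are those of mm10, and a distance is counted from a region's centre to the nearest start of the gene. The 3 gaps between the paired genes measure 9426 bp for Dlx1-Dlx2, 15150 bp for Dlx3-Dlx4 and 9236 bp for Dlx5-Dlx6.

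The lists held 174611 and 167550 peaks and 151790 and 144013 hotspots in replicates 1 and 2. The signal of a peak is the authors' own value, and the middle value of each list was 47 for replicate 1 and 39 for replicate 2. Its scale is not stated, so a signal is given with its percentile among all peaks of the same library. No read counts were used, so the depth is unknown. Genome-wide, 69.8% of the peaks of replicate 1 and 73.1% of those of replicate 2 shared 1 bp or more with the opposite list. At the 6 Dlx genes, 78.7% of the 75 peaks of replicate 1 overlapped one of replicate 2, and 33.5% of the 179 peaks of replicate 2 overlapped one of replicate 1. The Dlx peaks without a partner were thus mostly peaks of replicate 2, in the gaps, the gene bodies and the sequence upstream of Dlx6. Dlx6 held 45 of the 119 Dlx peaks of replicate 2 alone. The genes were chosen partly because the Dlx6 counts were known to differ, so these shares describe the members and are no support for a difference.

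Sequences are given for some of the regions with high signal in both libraries, not for the strongest in order. They are also given for regions between paired genes on which the difference between the libraries turns. They are read from RefSeq's GRCm38.p6, the mm10 assembly, on the plus strand, in lower case with matches to any of 6 searched words in capitals. The words were TAATTA and TAATTG, which homeodomain proteins bind, the E-box CAGCTG, the GC box CCGCCC, and the consensus of the insulator protein CTCF and of TP63, the epithelial relative of p53. Both strands were searched, so a capital run may be the reverse complement of a word. The first set was picked by a word and not by signal. It holds the 3 Dlx regions with the CTCF consensus, all of them upstream of Dlx2 or Dlx3.
Dlx2 upstream, chr2:71547976-71548125: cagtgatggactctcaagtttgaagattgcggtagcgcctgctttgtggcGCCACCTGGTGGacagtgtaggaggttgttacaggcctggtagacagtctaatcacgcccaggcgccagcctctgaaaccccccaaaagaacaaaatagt
Dlx3 upstream, chr11:95117096-95117265: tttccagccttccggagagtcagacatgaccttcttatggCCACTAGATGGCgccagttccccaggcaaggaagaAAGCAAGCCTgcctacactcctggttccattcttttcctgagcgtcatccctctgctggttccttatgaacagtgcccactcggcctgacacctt
Dlx3 far upstream, chr11:95106956-95107125: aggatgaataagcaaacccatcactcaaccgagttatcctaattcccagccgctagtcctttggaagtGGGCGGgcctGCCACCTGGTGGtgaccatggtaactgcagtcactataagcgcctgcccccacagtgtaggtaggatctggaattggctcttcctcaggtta

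The second set holds 3 further shared regions outside exons with high signal in both libraries: the strongest distal one of Dlx2, the one upstream of Dlx5, and the promoter region of Dlx6. None of them held a match to the 6 words.
Dlx2 far upstream, chr2:71598956-71599105: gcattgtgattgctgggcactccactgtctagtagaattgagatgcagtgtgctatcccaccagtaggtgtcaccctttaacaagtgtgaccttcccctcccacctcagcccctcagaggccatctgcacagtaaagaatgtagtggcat
Dlx5 upstream, chr6:6885016-6885185: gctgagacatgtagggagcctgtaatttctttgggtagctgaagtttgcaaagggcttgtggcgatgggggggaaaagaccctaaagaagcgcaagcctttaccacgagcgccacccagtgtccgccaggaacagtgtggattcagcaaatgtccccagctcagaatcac
Dlx6 promoter, chr6:6862816-6862965: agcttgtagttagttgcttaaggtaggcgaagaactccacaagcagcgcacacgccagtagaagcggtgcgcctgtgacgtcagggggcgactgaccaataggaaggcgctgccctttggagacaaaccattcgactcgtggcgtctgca

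The third set lies between paired genes. The first line is the strong region between Dlx3 and Dlx4 that both libraries held, and the other 3 are the strongest regions between the genes of each pair that replicate 2 alone held.
Dlx3-Dlx4, both libraries, chr11:95126616-95126785: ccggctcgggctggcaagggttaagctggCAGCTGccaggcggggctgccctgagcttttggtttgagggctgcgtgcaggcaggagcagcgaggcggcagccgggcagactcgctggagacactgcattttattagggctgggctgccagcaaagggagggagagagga
Dlx3-Dlx4, replicate 2 only, chr11:95138756-95138905: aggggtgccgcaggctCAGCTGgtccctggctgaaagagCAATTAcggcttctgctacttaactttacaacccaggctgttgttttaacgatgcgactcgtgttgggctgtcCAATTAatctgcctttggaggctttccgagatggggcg
Dlx1-Dlx2, replicate 2 only, chr2:71543116-71543265: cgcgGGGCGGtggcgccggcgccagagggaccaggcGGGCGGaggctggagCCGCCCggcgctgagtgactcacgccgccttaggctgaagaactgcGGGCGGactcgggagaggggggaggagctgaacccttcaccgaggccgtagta
Dlx5-Dlx6, replicate 2 only, chr6:6874216-6874365: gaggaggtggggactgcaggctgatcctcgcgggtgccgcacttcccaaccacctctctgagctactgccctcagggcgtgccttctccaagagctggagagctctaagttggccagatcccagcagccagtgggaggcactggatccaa
The Dlx1-Dlx2 sequence held the GC box 4 times, and the Dlx3-Dlx4 sequence of replicate 2 held TAATTG 2 times and the E-box 1 time.

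RefSeq's promoter table held 2 of the 6 genes, Dlx1 and Dlx2. The Dlx1 window lies within an exon of the annotation and is not printed. The 250 bases before the Dlx2 start, chr2:71546755-71547004, are printed on the minus strand, 5′ to 3′, because the promoter peak of both libraries falls there. The 131 bases inside that shared peak are in capitals.
Dlx2 promoter: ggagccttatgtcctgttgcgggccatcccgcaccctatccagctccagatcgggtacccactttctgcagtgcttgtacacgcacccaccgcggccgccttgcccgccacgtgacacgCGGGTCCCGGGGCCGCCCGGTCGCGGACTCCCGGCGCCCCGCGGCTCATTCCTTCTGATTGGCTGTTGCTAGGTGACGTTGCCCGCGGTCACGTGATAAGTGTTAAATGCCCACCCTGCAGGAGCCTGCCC

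All 6 Dlx genes had a promoter peak in both libraries. Over all protein-coding genes, 68.1% had one in replicate 1, 68.5% in replicate 2 and 66.5% had a shared one, so 6 of 6 is above the background share but covers few genes. With a window of 500 bp, or with hotspots in place of peaks, 5 of the 6 genes had a promoter region in both libraries. By the main rule Dlx1, Dlx2 and Dlx3 each had 1 shared promoter region, Dlx4 and Dlx6 had 3 each, and Dlx5 had 5.

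Dlx1, which with Dlx2 controls the interneurons of the forebrain, had its shared promoter region at chr2:71529636-71529805, 619 bp downstream of the nearest start in untranslated exon. Its signal was 105 in replicate 1 and 100 in replicate 2, the percentiles 94.3 and 93.4. Replicate 2 held 2 more promoter peaks of Dlx1, overlapping each other 523 and 503 bp upstream, each with a signal of 46. The shared promoter region of Dlx2, chr2:71546736-71546885, lay 56 bp before the start and had a signal of 89 and 78. Replicate 2 again held 2 further peaks, 424 bp inside the gene with a signal of 57 and 656 bp upstream with 34. At both genes the 1 strong region was alike in the libraries, and the weaker flanking peaks were in replicate 2.

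Dlx3, known for its role in epidermis, hair, teeth and placenta, had a single promoter peak in each library, 49 bp before its start at chr11:95119996-95120145. The signal was 87 in replicate 1 and 86 in replicate 2, at percentiles 87.2 and 89.5. Its partner Dlx4 had 3 shared promoter regions of middling signal. The one with the highest summed percentile, chr11:95146236-95146425, lay 67 bp before the start, with a signal of 53 and 41, percentiles 59.7 and 53.9. The other two had 47 and 42, and 38 and 44, so the order of the 3 in replicate 1 was turned around in replicate 2. All 3 overlapped the antisense transcript Dlx4os, which runs out across the Dlx4 start.

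Dlx5, which acts with Dlx6 in the ridge, in cartilage and in the lower jaw, had 6 promoter peaks in replicate 1 and 5 in replicate 2. The centres of its 5 shared regions ran from 735 bp before the start to 958 bp inside the gene. The highest, chr6:6882016-6882185 at the start itself, had a signal of 68 and 66. Dlx6 had 3 promoter peaks in replicate 1 and 4 in replicate 2. The region 444 bp before its first start, shown in the second set of sequences, had the highest signal of any region of the 6 genes, 109 in replicate 1 and 101 in replicate 2. A second shared region, chr6:6863536-6863705 in coding exon, had 74 and 82. Replicate 2 alone also held peaks 253 and 993 bp downstream of the nearest start, with signals of 48 and 61. The third shared region is centred 994 bp before the start. Its replicate 2 peak is centred beyond 1 kb and so is not among the 4 of replicate 2. Counted in replicate 2, Dlx4, Dlx5 and Dlx6 had 4 or more promoter peaks, as did 14.0% of all genes. That limit is the count of Dlx4 and Dlx6 themselves, so it takes them in by construction. The 14 shared promoter regions had a median signal of 50 and 45, and the promoter peaks, 15 in replicate 1 and 20 in replicate 2, averaged 17.5 ± 3.54 (SD, n = 2).

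**Figure D1:**
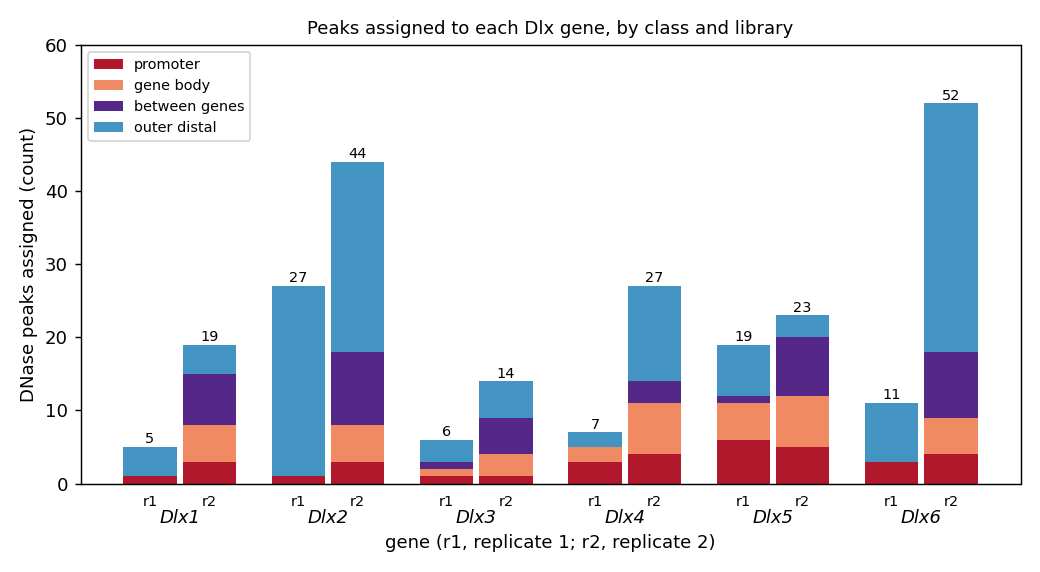
Number of DNase peaks (vertical axis) assigned to each Dlx gene (horizontal axis) in replicate 1 (r1) and replicate 2 (r2), stacked by class, with the total above each bar and no error bar because each bar is 1 library. Replicate 2 adds peaks in gene bodies, between the genes, at the promoters of Dlx1 and Dlx2 (1 and 3 each) and, for Dlx6 and Dlx4, in the outer distal class.

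The sequence between paired genes differed most. Replicate 2 held 17 peaks between Dlx1 and Dlx2, 8 between Dlx3 and Dlx4 and 17 between Dlx5 and Dlx6, and replicate 1 held 0, 1 and 1. Together these are 42 peaks against 2, a mean of 22 ± 28.3 (SD, n = 2), and 1 of the 42 overlapped a peak of replicate 1. The other 41 also lay outside every hotspot of replicate 1.

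Between Dlx1 and Dlx2 the 17 peaks of replicate 2 ran the length of the gap, with signals from 23 to 71 and a median of 42, at a median percentile of 55.5. The highest, with a signal of 71, lay 3564 bp from the Dlx2 start and is the sequence with 4 GC boxes. Hotspots of replicate 2 covered 86.6% of this gap, 1 of them 4640 bp wide, and hotspots of replicate 1 covered 0%. Over the whole pair, from the outer end of Dlx1 to that of Dlx2, hotspots covered 76.9% in replicate 2 and 2.36% in replicate 1. The 2 hotspots of replicate 1 sat on the 2 promoter peaks. This gap is where enhancers of the pair are known from the forebrain and the branchial arches.

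Between Dlx5 and Dlx6 the 17 peaks of replicate 2 had signals from 15 to 53, with a median of 34 at percentile 41.6. Hotspots covered 93.1% of this gap in replicate 2 and 1.03% in replicate 1. The 1 peak of replicate 1 had a signal of 34 and lay at the 3′ end of Dlx5. It overlapped a replicate 2 peak of signal 24 whose centre is inside the gene, and the merged region, chr6:6877636-6877905, is the 1 shared region of this gap. The pair as a whole was covered to 88% by hotspots of replicate 2 and to 23.2% by those of replicate 1, which lay mostly on Dlx5.

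Between Dlx3 and Dlx4 the pattern was sparser. Replicate 2 had 8 peaks, with signals from 21 to 72, and hotspots over 14% of the gap against 1.46% in replicate 1. The 1 peak of replicate 1 was also the strongest of replicate 2: chr11:95126616-95126785, 6581 bp from the Dlx3 start, had a signal of 80 and 72 and percentiles of 83.4 and 83.2. The shared region of the Dlx5-Dlx6 gap, at percentiles 23.5 and 17.9, was weaker in both. The sequence of the Dlx3-Dlx4 region held the E-box 1 time. The strongest of replicate 2 alone, 7433 bp from the Dlx4 start, had a signal of 59.

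**Figure D2:**
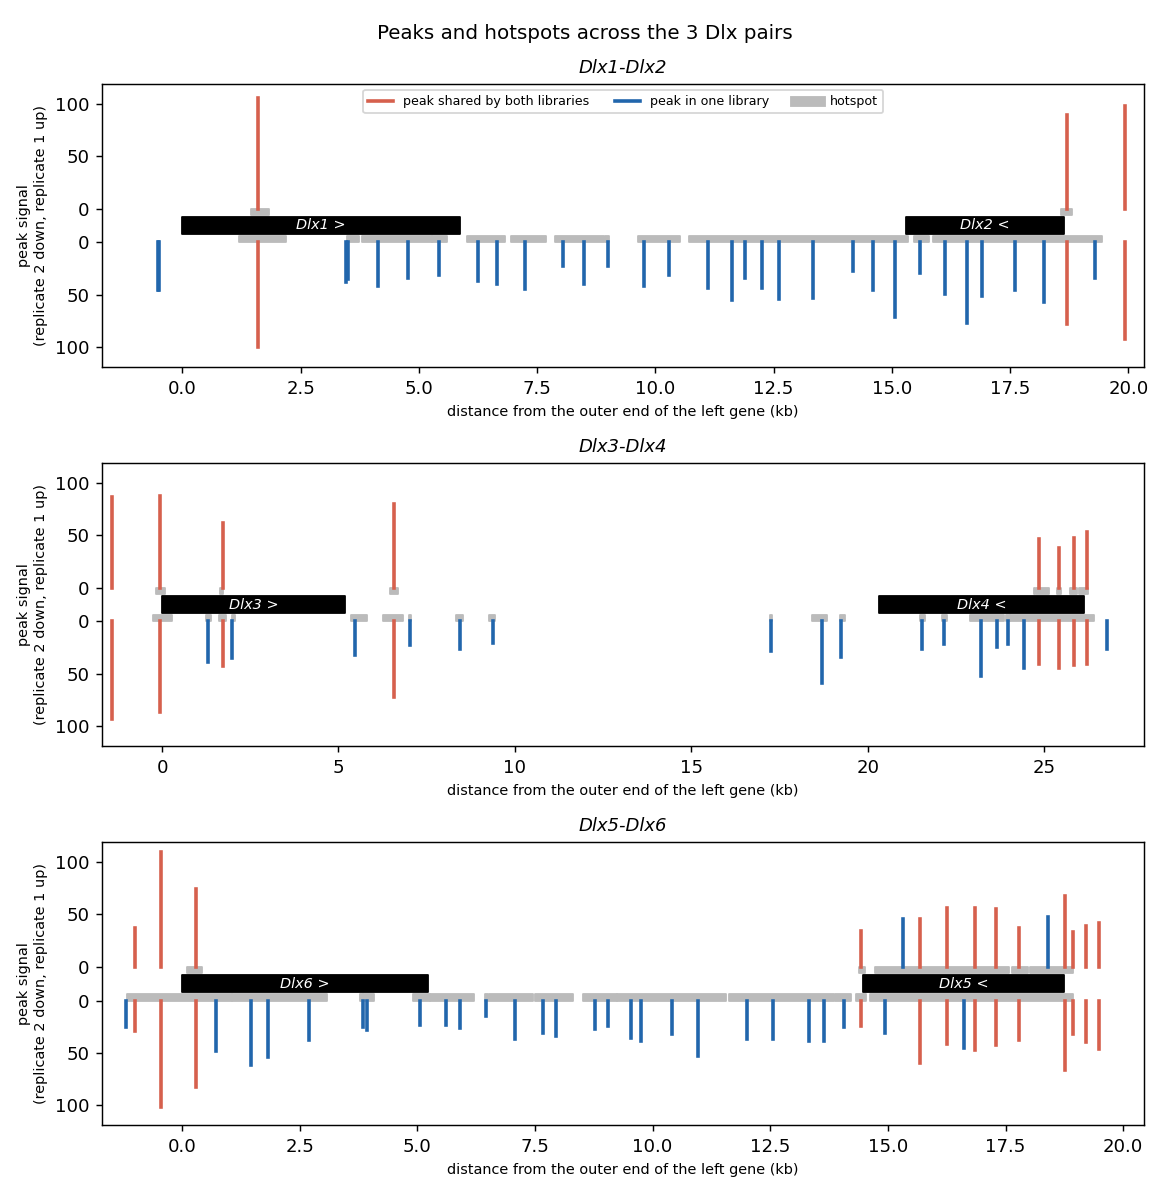
Peaks and hotspots across the 3 pairs, by distance from the outer end of the left gene (horizontal axis, kb), with the signal of each peak (vertical axis, authors' units) upward for replicate 1 and downward for replicate 2; black boxes are genes with an arrowhead for strand, and grey bars are the hotspots that reach into the span of the 2 genes. The gaps between Dlx1 and Dlx2 and between Dlx6 and Dlx5 hold 17 peaks each in replicate 2, against 0 and 1 in replicate 1.

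The annotation holds 5478 gaps of 5000 to 20000 bp between neighbouring protein-coding genes, with a median of 1 peak in each library. Of these gaps, 54 (0.986%) held 8 or more peaks in replicate 2. The limits of 8 or more peaks in replicate 2 and at most 1 in replicate 1 were read from the Dlx gaps themselves, so they select them by construction. By them 4 gaps (0.0730%) stood out, the 3 Dlx gaps and the one between Fezf1 and Cadps2. With the libraries exchanged 1 gap (0.0183%) did. Hotspots of replicate 2 covered more than 80% of 3 gaps (0.0548%), 2 of them Dlx gaps, and hotspots of replicate 1 covered more than 80% of 1 gap (0.0183%). The limit of 80% lies under the 86.6% and 93.1% of those 2 Dlx gaps and above the 14% of the third. It thus describes the Dlx gaps and is no separate support. Replicate 2 is labelled with 2 sequencing instruments and replicate 1 with none, and the part of this in the Dlx result was not tested.

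Gene bodies also held more peaks in replicate 2, at each of the 6 genes. Outside their promoters, Dlx1, Dlx2 and Dlx6 had 0 peaks in replicate 1 and 5 each in replicate 2. Dlx3 had 1 and 3, and Dlx4 had 2 and 7. Dlx5 was closest, with 5 in replicate 1 and 7 in replicate 2, and 4 of its regions were shared, with signals from 46 to 56 in replicate 1 and from 41 to 60 in replicate 2. The strongest peak of replicate 2 alone at any Dlx gene lay in a coding exon of Dlx2, chr2:71544636-71544785, with a signal of 77 at percentile 85.7. Over the 6 genes the body held 8 peaks in replicate 1 and 32 in replicate 2, a mean of 20 ± 17 (SD, n = 2). No share over all protein-coding genes is given here for gene bodies, so how unusual these counts are was not tested.

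Peaks were also counted within the antisense transcripts, which overlap the classes used here. These counts repeat peaks of those classes, and no share over all genes is given beside them. Dlx6os1, a noncoding RNA also known as Evf2 that regulates the pair in forebrain, runs from between the genes back across Dlx6, at chr6:6820189-6871592. Within it lay 8 peaks of replicate 1 and 45 of replicate 2, 5 regions being shared. Within 1 kb of its start, which is in the Dlx5-Dlx6 gap, lay 0 peaks of replicate 1 and 4 of replicate 2. Dlx1as, antisense to Dlx1, held 1 peak of replicate 1 inside it, the Dlx1 promoter region, and 15 of replicate 2. Dlx4os held 4 and 10. Its start, unlike those of the others, was marked in both libraries, with 3 shared regions within 1 kb.

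The outer distal class, peaks beyond the ends of a pair, divided the pairs. Dlx1 and Dlx2 together had 30 such peaks in each library, and 25 shared regions. Dlx3 had 3 in replicate 1 and 5 in replicate 2, and Dlx4 had 2 and 13. Dlx5 had 7 and 3, the one gene with more in replicate 1, and Dlx6 had 8 and 34. All 36 shared regions of this class lay upstream of their gene, which follows from the convergent order of the pairs.

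Dlx2 held 21 of the 36 shared outer regions, from 1.3 to 110 kb upstream with a median of 66.2 kb, all of them intergenic. Of these, 15 had the higher signal in replicate 1, while 77% of all shared regions of the genome did. The strongest lay 52276 bp upstream, with a signal of 107 and 96 and percentiles of 94.8 and 92.5. The next, 1296 bp upstream and holding the CTCF consensus, had 98 and 92. The third, chr2:71655816-71656025, lay 109166 bp upstream and had 96 and 87. The lowest percentile among these 3 was 89.9. Dlx1 had 4 shared outer regions, 28.3 to 30.7 kb upstream, inside introns of Metap1d. The highest of them, chr2:71497296-71497465, had a signal of 77 and 54. Of peaks in 1 library, the strongest of replicate 1 at this pair, chr2:71608376-71608525, had a signal of 42.

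Dlx3 had 3 shared outer regions within 13.1 kb, and all were strong. They had signals of 99 and 85 at 2939 bp upstream, 86 and 93 at 1409 bp, and 93 and 76 at 13079 bp. The lowest of their percentiles was 85.2. The region at 2939 bp was the strongest in replicate 1 and the one at 1409 bp in replicate 2. The region at 1409 bp matched none of the words, and the one at 2939 bp matched both the CTCF and the TP63 consensus. Dlx4 differed from its partner. Its 2 shared outer regions lay 38.5 and 41.4 kb upstream, with signals of 46 and 31 and of 53 and 29. Each held the E-box 1 time. Of the 11 outer peaks of Dlx4 in replicate 2 alone, 6 lay inside Dlx4os, between 2107 and 4547 bp from the Dlx4 start, with signals from 21 to 56.

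Dlx5 had 2 strong shared outer regions. The one 3015 bp upstream had a signal of 103 and 84, percentiles 93.7 and 88.7. The one 33265 bp upstream, chr6:6915276-6915425, had 88 and 65. Its 5 outer peaks in replicate 1 alone were weak, with a median signal of 25 at percentile 4.98. Dlx6 had 4 shared outer regions. The strongest of replicate 1 lay 77064 bp upstream at chr6:6786156-6786385, with a signal of 68 and 46, and the strongest of replicate 2 lay 2774 bp upstream at chr6:6860416-6860705, with 53 and 60. Of its 29 outer peaks in replicate 2 alone, 27 lay inside Dlx6os1. Their signals were low for that library: the 29 had a median of 25 at percentile 20.4, with a range from 14 to 65. The highest, chr6:6860136-6860285, lay 3124 bp upstream, where replicate 1 called a hotspot but no peak. The strongest peak of replicate 1 alone, chr6:6860976-6861125 with a signal of 51, lay in hotspots of both libraries as well. Both libraries thus marked the sequence just before Dlx6 but placed several peaks at different positions there.

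**Figure D3:**
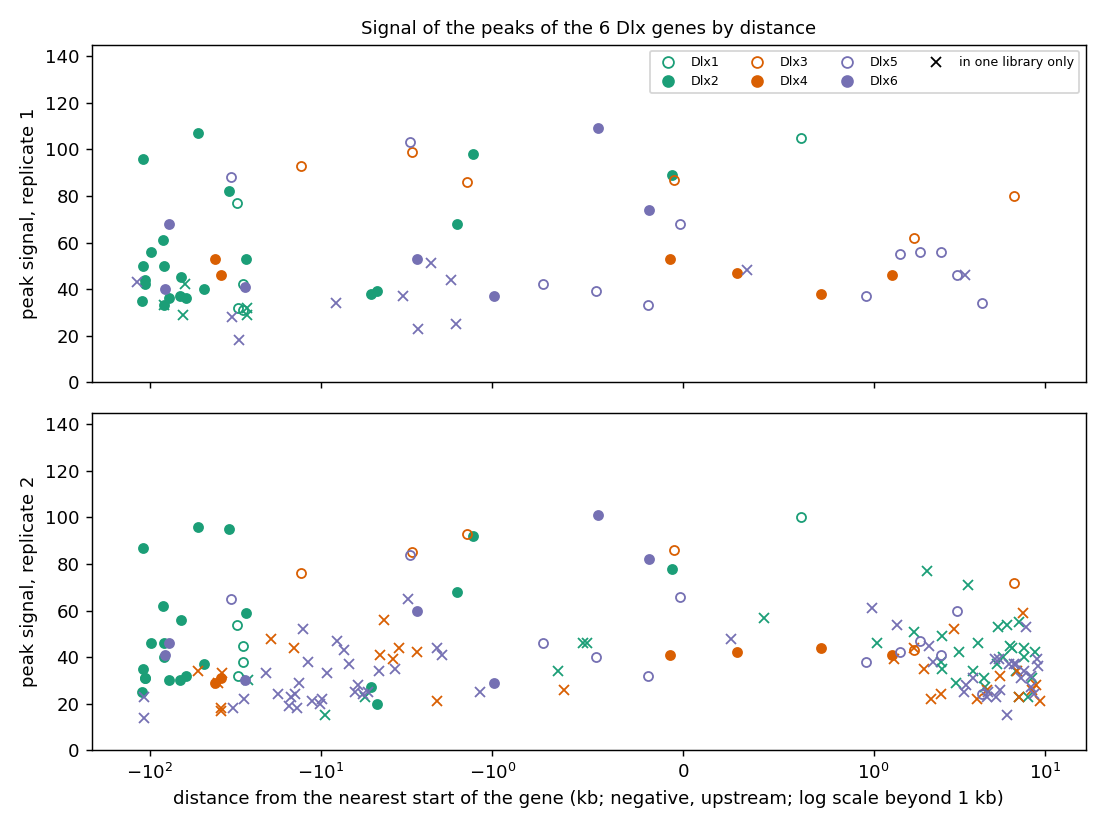
Signal of each peak of the 6 Dlx genes (vertical axis, authors' units) by distance from the gene's nearest start (horizontal axis, kb, linear to 1 kb and logarithmic beyond), for replicate 1 above and replicate 2 below; circles are peaks shared by both libraries and crosses those in 1 library. The strongest shared peaks, such as Dlx6 at 109 and 101 and Dlx2 at 107 and 96, recur in both, and the crosses of replicate 2 gather downstream of the starts and upstream of Dlx6.

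Taking gene bodies, gaps and outer regions together as distal, Dlx1 had 4 peaks in replicate 1 and 16 in replicate 2, with 4 shared regions. Dlx2 had 26 and 41, with 21 shared. Dlx3 had 5 and 13, with 5 shared. Dlx4 had 4 and 23, with 3 shared. Dlx5 had 13 and 18, with 7 shared, and Dlx6 had 8 and 48, with 4 shared. All 6 genes thus had more distal peaks in replicate 2. Among shared regions the order was Dlx2, Dlx5, Dlx3, Dlx1 and Dlx6 level, then Dlx4. In replicate 2 it was led by Dlx6, and in replicate 1 by Dlx2. Both counts of Dlx2 were above those of Dlx1, Dlx3, Dlx4 and Dlx5, while the ranges of the other 5 genes overlapped or touched one another, so their order is not resolved by 2 libraries. All 6 had 3 or more distal shared regions, as did 38.5% of all genes, and 1 of 6, Dlx2, had 20 or more, as did 4.06%. The limit of 3 is the count of Dlx4, the lowest member, and the limit of 20 lies just under the 21 of Dlx2. The member counts thus follow from the limits. The 21 regions of Dlx2 fell to 16 with hotspots in place of peaks, with a reach of 100 kb or with 1 start per gene. They fell to 9 with peaks above the median signal, and to 7 with a reach of 50 kb, level with Dlx5. Per 100 kb of sequence nearest to the gene, Dlx2 had 16.3 shared distal regions, Dlx5 15.2, Dlx3 14.4, Dlx1 8.47, Dlx4 4.24 and Dlx6 2.63, beside a median of 2.83 over all genes. For Dlx6, 48.4% of genes had a lower density, so its shared regions were near the middle.

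Among the 7121 genes with 10 or more distal peaks over both libraries together, 2.79% had at least 2 times as many in replicate 2 as in replicate 1, and 0.548% had at least 4 times as many. Dlx1, Dlx3, Dlx4 and Dlx6 were among the former, 4 of 6 members. Dlx1, Dlx4 and Dlx6 were among the latter, 3 of 6. In the opposite direction 3.10% of the genes had at least 2 times as many in replicate 1, and 0 of 6 Dlx genes did. The genes were chosen partly because the Dlx6 counts were known to differ. In replicate 1, Dlx1, Dlx3, Dlx4 and Dlx6 had 4, 5, 4 and 8 distal peaks, so they reached 10 only with their replicate 2 peaks. Dlx1, with 4 and 16, stood at the limit of 4 times. The shares are thus a description of the members and no support for a difference. Sums over the neighbouring genes differed less. The 6 nearest neighbours of each pair together had 49 distal peaks in replicate 1 and 56 in replicate 2 at Dlx1-Dlx2, 23 and 27 at Dlx3-Dlx4, and 124 and 131 at Dlx5-Dlx6.

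**Figure D4:**
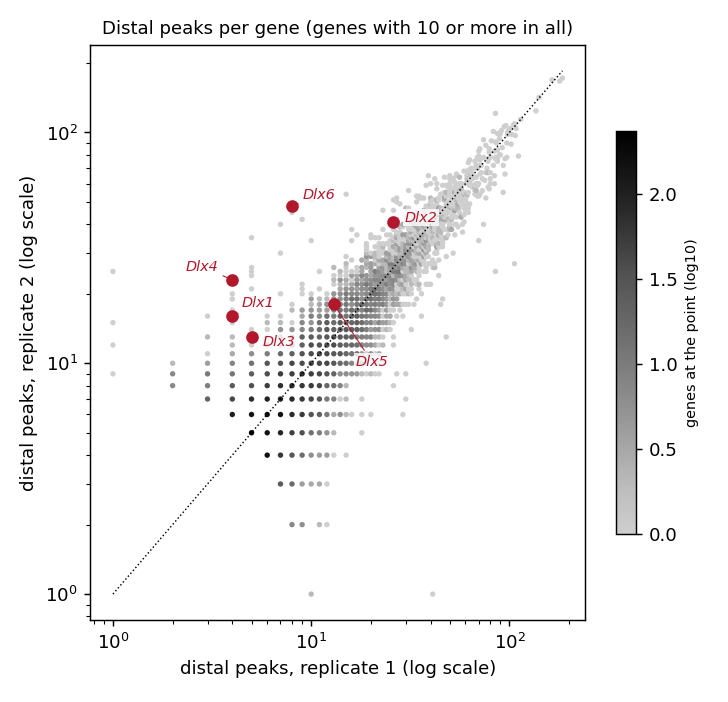
Distal peaks per gene in replicate 1 (horizontal axis) and replicate 2 (vertical axis), both on log scales, for the 7121 genes with 10 or more in all; grey points are shaded by the number of genes and the dotted line marks equal counts. Dlx6 at 8 and 48, Dlx4 at 4 and 23 and Dlx1 at 4 and 16 lie far above the line, and Dlx2 and Dlx5 lie nearer to it.

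Base composition was read from the central 150 bases of each region. The 14 shared promoter regions of the Dlx genes had a median GC content of 59.3% and a median ratio of observed to expected CpG of 0.666, beside 62.7% and 0.727 for all shared promoter regions. The 44 shared distal regions had 53.3% and 0.352, beside 49.3% and 0.248 for all. The 41 regions between paired genes in replicate 2 alone had 49.3% and 0.349, beside 48% and 0.256 for all peaks of replicate 2 alone. Of those 41, 12.2% had a CpG ratio of 0.6 or more, as did 13% of all peaks of replicate 2 alone, so most of the gap peaks do not lie in CpG-rich sequence. The sequence with 4 GC boxes is one that does, with a GC content of 73.3%.

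Words were counted in the same central bases. The E-box CAGCTG was in 10 of 44 shared distal Dlx regions, 22.7%, beside 16.6% of all shared distal regions, and in 17.1% of the 41 gap regions of replicate 2 beside 12.1% of all its own. TAATTA was in 4.55% of the 44, beside 5.4% of all, and TAATTG in 2.27% beside 8.05%. The GC box was in 2 of 14 promoter regions, 14.3%, beside 41.9% of all. The CTCF consensus was in 6.82% of the 44, beside 6.77%, and in 0 of 119 Dlx regions of replicate 2 alone, beside 0.34%. These shares rest on 0 to 10 Dlx regions each. A match describes letters and not a bound site.

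Among the neighbours, Dync1i1, a dynein subunit gene, lies 835 to 1137 kb from Dlx6, and sequence within it is known to act as a limb enhancer of Dlx5 and Dlx6. It held 43 peaks of replicate 1 and 33 of replicate 2, with 25 shared regions. These are farther than 500 kb and nearer to other starts, so the rule does not assign them to Dlx5 or Dlx6. The strongest, picked after its value was seen, was chr6:6005816-6006005 in intron 14, with a signal of 112 and 105. The next, chr6:6017076-6017225 in intron 16, had 103 and 71. Exon 1 and exon 17 were overlapped by shared regions, the latter at chr6:6027756-6027945 with 62 and 53. None of these regions was matched to the known enhancer. The strongest distal region of Dlx5, for comparison, had 103 and 84. Slc25a13, a mitochondrial carrier gene next to it, had 25 distal shared regions, and Sem1 had 12. Sdhaf3, on the Dlx5 side, had 8, Tac1 9 and Asns 7. At the other pairs, Itga6 had 12 and Rapgef4 10 beside Dlx1-Dlx2, and Tac4 had 10 beside Dlx3-Dlx4.

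Other genes of the settings in which Dlx genes act were counted in the same way. Of 16 genes of the ectodermal ridge and its signals, 14 had a shared promoter peak, Fgf8 and Fgf17 being the exceptions, beside the 66.5% of all genes. The 16 had a median of 11.5 distal shared regions, beside a median of 1 over all genes. Msx2 led with 39, then Msx1 with 27, and Fgf9 and Sp8 with 25 each. The distal peaks of the 16 summed to 344 in replicate 1 and 342 in replicate 2, where those of the 6 Dlx genes summed to 60 and 159. Of 9 cartilage and bone genes, 6 had a shared promoter peak, and Sox9 had 68 distal shared regions and Runx2 38. Of 10 forebrain interneuron genes, 8 had one, and Lhx8 led with 23. Their distal peaks summed to 127 and 113. Of 7 pharyngeal arch genes 6 had one, with Pou3f3 at 29, and of 6 epidermis and placenta genes 2 had one, Hoxc13 with 13 distal shared regions and Krt10 with 1.

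Marker genes describe the tissue in which the Dlx regions were read. All 6 limb mesenchyme markers had a shared promoter peak, as did 66.5% of all genes. They had a median of 32.5 distal shared regions, beside a median of 1 over all genes. The distal sums of the 6 were 313 in replicate 1 and 310 in replicate 2. Among them Tbx4, the hindlimb factor, had 3 and 9 promoter peaks, 2 and 26 peaks inside the gene and 40 and 52 distal peaks. Tbx5, the forelimb factor, had 15 and 11 promoter peaks, 34 and 28 inside the gene and 58 and 50 distal peaks. Hand2 had 3 and 3 promoter peaks, 8 and 1 inside the gene and 78 and 58 distal peaks. Promoter peaks numbered 4 and 3 at Prrx1, 2 and 3 at Twist1, and 4 and 4 at Lmx1b. Inside these genes lay 16 and 16, 0 and 3, and 45 and 44. Of 6 surface ectoderm and ridge markers 4 had a shared promoter peak, near the share of all genes, Krt14 and Fgf8 lacking it. The distal peaks of the 6 summed to 58 in replicate 1 and 56 in replicate 2. Of 5 neural markers 4 had one, with distal sums of 114 and 144. Sox2 had 42 and 63 and Pax6 54 and 65, while Tubb3 had 4 and 4, Gad1 7 and 7, and Nkx2-1 7 and 5. Of 3 neural crest markers 1 had one, with sums of 61 and 60. Of 3 muscle markers 2 had one, also near the share of all genes, with sums of 74 and 77. Of 3 endothelial markers 1 had one, with 66 and 51, and of 4 blood markers 0, with 49 and 42. Of the mesenchyme markers, Prrx1, Twist1, Tbx4 and Lmx1b had more distal peaks in replicate 2, and Tbx5 and Hand2 had more in replicate 1. Of the neural markers, Sox2 and Pax6 had more in replicate 2, Nkx2-1 had fewer, and Tubb3 and Gad1 had as many. The part of the mixture of cells or limbs in the Dlx result was not tested.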

How the data were processed

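DNase-seq regions of 2 biological replicates of limb at 11.5 days were used. Per the labels and file headers, the authors called regions on mm10 alignments of each library apart, without pooling. The sources used here give neither aligner nor caller. The deposited peaks are 150 bp wide with a signal value per peak whose scale is not stated, and the deposited hotspots carry −log10 q values, 1.30 to 6 with a ceiling at 100. Per the authors' files there are no read counts, so depth is unknown. Nothing in the labels says that the replicates are separate litters, so their spread may be partly technical.

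Overlaps, shared regions and nearest starts were computed with Python 3.11.15 and NumPy 2.4.6 and tested on simulated data, and figures were drawn with Matplotlib 3.10.9. Starts were the 5′ ends of 54361 protein-coding transcripts of GENCODE M21. Peaks on 21 named chromosomes were kept, which left out 181 in each library. A shared region merges peaks that overlap by at least 1 bp. A promoter peak has its centre within 1 kb of a start. No significance test was made, since there is 1 group of 2 libraries. Named regions were, per gene, the promoter region and the 3 distal shared regions with the highest summed percentile, every shared region between paired genes, and the strongest region of each library alone per pair. Up to 4 genes per list with the most distal shared regions were named. The genes and lists were chosen with earlier results of these data known. Alternatives changed the overlap, signal, promoter window, reach, starts, gap definition, region type and library.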

Additional observations from a re-analysis of the deposited data

How the results depend on the processing

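The peaks assigned to the 6 genes numbered 58 shared regions, the genes with a promoter peak in both libraries 6, and the shared regions between paired genes 2. With each library alone they ranged from 75 to 179, stayed at 6, and ranged from 2 to 42, the higher values being replicate 2 alone. Requiring overlap of at least 75 bp left 1 region between paired genes, and keeping peaks above each library's median signal left 29 assigned regions and 1 between paired genes. Counting from the 5′ starts of the paired genes, which takes in the gene bodies, gave 13. The other alternatives run (hotspots, promoter windows of 500 bp and 2 kb, reaches of 100 and 50 kb, 1 start per gene) left these 3 values within 1.5 times, where they applied. Within that factor, the genes with a promoter peak in both libraries fell from 6 to 5 with hotspots and with the 500 bp window. Of 78 values for single genes or gaps under the alternatives, 26 moved by more than 1.5 times. No paired analysis was possible because there is 1 group and no test. Small counts at single genes, the absence of read depth and the unknown scale of the signal limit every comparison of the 2 libraries.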

Other observations

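The gap between Fezf1, a zinc finger gene of forebrain development, and Cadps2 was the only one outside the Dlx pairs with 8 or more peaks in replicate 2 and at most 1 in replicate 1. It measures 14410 bp and held 1 peak in replicate 1 and 21 in replicate 2, with hotspots over 1.26% and 46% of its length. In the opposite direction the gap between Gm21663 and Gm21671 held 10 and 1. These gaps were named after their values were seen.

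Among the 7 distal shared Dlx regions at or above percentile 85 in both libraries, 3 held the CTCF consensus, 2 at Dlx3 and 1 at Dlx2. Of the 9102 distal shared regions of the genome at that level, 13.9% held it. The level was chosen after the values had been seen, and the count describes these 7 regions only.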
